A study of Mus musculus with 9 samples.

Results

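The 3 vehicle libraries described here form the vehicle arm of an EZH2 inhibitor experiment: CH12F3 cells deficient for DNA ligase IV (Ligase4 KO), kept for 24 h with an anti-CD40 antibody, IL-4 and TGF-beta in the presence of DMSO, the vehicle. They are 3 of the 9 libraries in the series and were chosen by their label alone. The other 6 libraries came from the same stimulated knockout line treated with tazemetostat or valemetostat and were not used here. All cells therefore carry the knockout and the stimulus, and neither unstimulated cells nor cells with intact Lig4 were among the 9 libraries. CH12F3 is a single mouse B-lymphoma line, so the values belong to 1 cell line. The labels do not say whether the 3 libraries came from separate cultures, so an SD below may reflect technical spread alone.

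CH12F3 cells express IgM at the surface. Under CD40 ligation, IL-4 and TGF-beta they start class switch recombination to IgA. In that reaction uracil removal and mismatch processing turn lesions in transcribed switch regions of the heavy chain locus into double-strand breaks, and end joining links the donor region to the acceptor region. Ligase IV performs the last step of classical end joining, and cells without it rely on alternative end joining. EZH2, the target of both drugs, is the methyltransferase subunit of Polycomb repressive complex 2 (PRC2), which places the repressive mark H3K27me3.

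Poly(A) RNA was sequenced and deposited as counts and as log2(TPM + 1). TPM is a level corrected for transcript length and scaled to a fixed total. Libraries held 46675110, 34080504 and 35614792 counts in DMSO 1, 2 and 3. The floor of 3 counts lay between 0.0643 and 0.0880 CPM (counts scaled to the library total), and this limit covers counting error only. A gene is called on where its TPM was at least 1 in each library. Among the rest, it is off where it had at most 3 counts in each library, and low otherwise. Only 2 genes met both limits, and they count as on. Values are mean ± SD over the 3 libraries (n = 3) unless each library is given, always in the order DMSO 1, 2 and 3. There is 1 group, so no test was made.

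Lig4, the targeted gene, had 30, 39 and 29 counts, or 0.18, 0.31 and 0.21 TPM, and was low in all 3 libraries. It was the least abundant of the 10 classical end joining genes measured. The labels do not name the deleted segment and no unmodified cells were measured, so these counts do not check the genotype.

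A minority of the identifiers counted made RNA at the level called on, and a small number of these supplied much of it. Of 45361 identifiers in the table, 10541 (23.2%) were on, 4079 (8.99%) were low and 30741 (67.8%) were off, and 28500 had no count in any of the 3 libraries. Among the identifiers that were off were 9175 processed pseudogenes, 2567 unprocessed pseudogenes and 1124 miRNA genes. Among the 21800 protein-coding genes, 10113 (46.4%) were on, 2789 (12.8%) were low and 8898 (40.8%) were off. Each count of list members below is to be read beside this 46.4%. Genes that were on took 99.8% of all counts. Near the limit, 621 genes had a lowest TPM between 1 and 2 and 512 had a lowest TPM between 0.5 and 1. The median level of the genes that were on was 21.97 TPM, against 0.423 TPM over all protein-coding genes.

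Levels of the genes that were on fell into 4 bands. At 1000 TPM or more stood 148 genes, which held 46.9% of TPM. Between 100 and 1000 TPM lay 1250 genes, between 10 and 100 TPM lay 6211, and from 1 to 10 TPM lay 2932. The 10 most abundant genes held 7.99 ± 0.212% of TPM, the 100 most abundant 40.3 ± 0.933% and the 1000 most abundant 71.6 ± 0.873%. These shares are of transcripts per length. Measured in reads, the same 100 genes held 18.2 ± 0.573% of counts, and the 100 genes with the most counts held 21.3%.

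**Figure D1:**
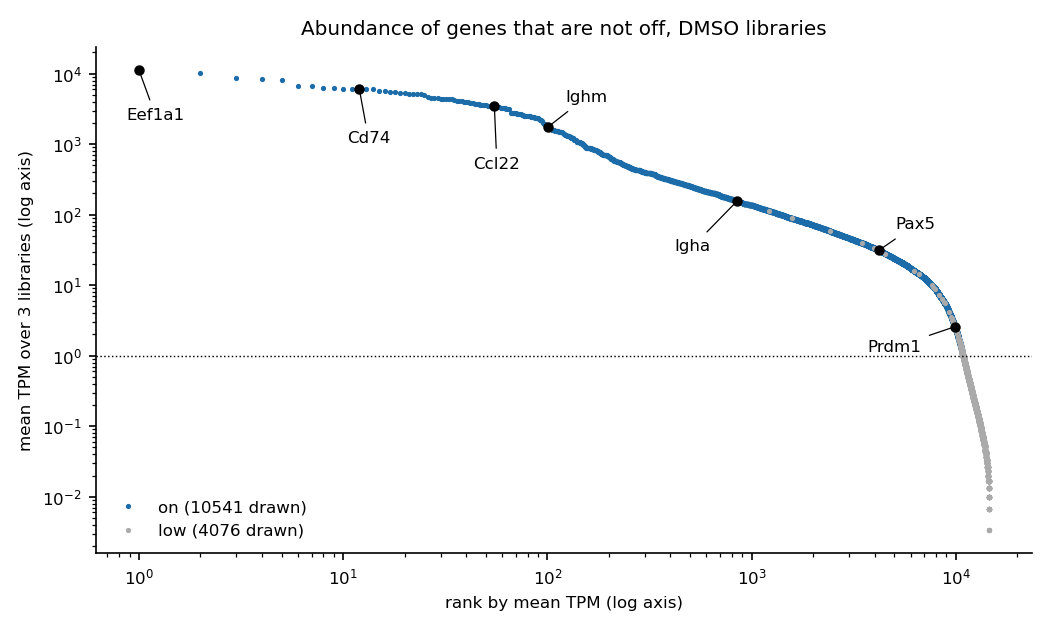
Mean TPM over the 3 libraries (y axis, log) against rank by mean TPM (x axis, log) for genes that were on (blue) or low (grey) with a mean above 0, with the limit of 1 TPM dotted. Eef1a1 leads at 11283 TPM, Ighm stands at rank 101, and the curve falls steeply below 10 TPM.

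The most abundant transcripts were those of the protein synthesis machinery. Of the 30 highest genes, 19 encode ribosomal proteins, led by Rplp1 (10087 ± 1039 TPM), Rps24 (8797 ± 526 TPM) and Rps27 (8524 ± 1293 TPM). First place went to Eef1a1, which delivers aminoacyl-tRNA to the ribosome, with 10542, 11702 and 11606 TPM. Its paralog Eef1a2 had 0 counts in all 3 libraries. The ribosomal protein family as a whole had 84 of 90 members on (93.3%, beside 46.4% of protein-coding genes). Its median was 2781 TPM and it held 27.8 ± 1.29% of all TPM. Other ribosomal protein genes in the top 30 were Rpl41, Rps12, Rpl13a, Rps2, Rpl36, Rps27a, Rps14, Rpl23a, Rpl32, Rps15, Rps21, Rplp0, Rpl38, Rpl8, Rpl26 and Rpl10, between 4409 and 6215 TPM. Some ribosomal protein genes differed among libraries, and Rpl41 had 7278, 5301 and 6064 TPM and Rpl38 5376, 3932 and 4831 TPM, in both cases lowest in DMSO 2 and highest in DMSO 1.

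Beside the ribosome, the top 30 held the prolyl isomerase Ppia (6784 ± 142 TPM), the glycolytic enzyme Gapdh (6645 ± 402 TPM), the nucleolar chaperone Npm1 (5569 ± 235 TPM) and 3 genes of the B cell. These were the kappa V segment Igkv10-96 (8233 ± 704 TPM), the kappa constant region Igkc (4950.2 ± 461 TPM) and the MHC class II invariant chain Cd74 (6041 ± 156 TPM). The remaining 4 were the gene models Gm29216 (6233 ± 1034 TPM), Gm28437 (5972 ± 708 TPM), Gm10925 (5762 ± 899.7 TPM) and Gm28661 (4497 ± 632 TPM), all annotated as unprocessed pseudogenes. Nuclear copies of mitochondrial genes are listed under such names in the mouse genome. The table had 0 rows named mt-, so reads of mitochondrial transcripts and of their nuclear copies cannot be told apart here.

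Outside every list and family examined, the 20 highest genes were mostly housekeeping genes. They included the chromatin and nuclear proteins Ptma (3744 ± 78.1 TPM), H2az1 (1882 ± 107 TPM), Set (1348 ± 41.4 TPM) and Hmgb1 (1305 ± 28.4 TPM), the ATP synthase subunit Atp5b (3513 ± 103 TPM) and the cytokine-like tautomerase Mif (3407 ± 181 TPM). Ribosome-linked members were Fau (2549 ± 248 TPM), Rack1 (2382 ± 70.2 TPM), Naca (1303 ± 113 TPM) and Btf3 (1488 ± 38.5 TPM). Iron storage was represented by the ferritin heavy chain Fth1 (1939.7 ± 119.8 TPM) and the light chain copies Ftl2-ps (3659 ± 112 TPM) and Ftl1-ps1 (1939 ± 161 TPM), which share sequence with the functional light chain gene and cannot be told apart from it with certainty. Rps18-ps6 (4389 ± 164 TPM) shares sequence with Rps18 in the same way. The last members were Ly6e (1670 ± 104 TPM), Uqcr10 (1546 ± 141 TPM), Hnrnpa1 (1373 ± 63.6 TPM), Atp5md (1224 ± 117 TPM) and Ubb (1217 ± 6.63 TPM).

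Immunoglobulin V transcripts came almost entirely from 1 V segment at each of the heavy and kappa loci. On the heavy chain side only Ighv1-53 was on among 183 V segments, and 180 were off. Ighv1-53 had 5530, 4863 and 4863 counts out of 5541, 4863 and 4863 counts over all heavy V segments. Its share was 99.8% in DMSO 1 (95% Wilson interval 99.6 to 99.9%) and 100% in the other libraries (lower bound 99.9% in each). In DMSO 1 the next segments, Ighv8-6 and Ighv1-55, had 6 and 5 counts, and both had 0 in DMSO 2 and DMSO 3. Such intervals cover counting error only, because reads are not independent molecules.

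On the kappa side, Igkv10-96 had 20579, 18105 and 19681 counts, which was 99.7% of the kappa V counts in each library (Wilson bounds from 99.6 to 99.8%). Of 160 kappa V segments, 157 were off. The 2 others that passed the limit were Igkv14-111, with 47, 57 and 61 counts, and Igkv10-95, with 9, 1 and 2. Igkv10-95 thus counted as on at 1 TPM with a single count in DMSO 2, and belongs to the same subgroup as Igkv10-96. Of 3 lambda V segments Iglv3 was on, with 53, 36 and 37 counts (13.9 ± 1.07 TPM), while Iglv1 had 1, 2 and 2 counts and Iglv2 had 0. T cell receptor V segments, 178 in all, had 0 counts in every library.

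Among constant regions, IgM stood far above the rest of the heavy chain locus. Ighm, the IgM heavy chain, had 1623, 1829.8 and 1851 TPM, lowest in DMSO 1. Igha, the IgA heavy chain, had 151, 154 and 162 TPM, and the ranges of Ighm and Igha did not overlap. The ratio of Ighm to Igha within a library was 10.7, 11.8 and 11.4, or 11.3 ± 0.565. Divided by exon length from GENCODE instead of taken as deposited, Ighm was 3044 and Igha 155 on the TPM scale, a ratio of 19.7 ± 1.03. In deposited TPM, Ighm made up 90.2 ± 0.429% of the TPM of 8 heavy constant regions and Igha 7.98 ± 0.364%. By GENCODE exon length the share of Ighm was 93.6 ± 0.29%. Each of the other 6 was on at a low level, between 2.44 ± 0.654 TPM for Ighg2c and 8.21 ± 0.998 TPM for Ighg1. Transcripts of unrearranged constant regions (germline transcripts) and of switched or unswitched heavy chains share constant region exons, so a count does not say which of them was measured.

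The light chain was kappa. Igkc had 4613, 4762 and 5476 TPM and took 97.9 ± 0.17% of the light constant TPM. Iglc2 was next with 105 ± 8.19 TPM, while Iglc1 (0.98 ± 0.294 TPM) and Iglc3 (0.62 ± 0.89 TPM) were low. Iglc3 rested on 0, 1 and 8 counts and is close in sequence to Iglc2. The ratio of Igkc to Ighm was 2.8 ± 0.181 in TPM and 0.542 in counts, which do not correct for length. Ighd, whose RNA is spliced from the same precursor as Ighm in naive B cells, reached 7.34 ± 0.97 TPM, and the ratio of Ighm to Ighd was 242 ± 17.1. Jchain, which links IgM pentamers and IgA dimers, had 694 ± 35 TPM, and Mzb1, a chaperone of antibody secretion, 731 ± 36.3 TPM.

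**Figure D2:**
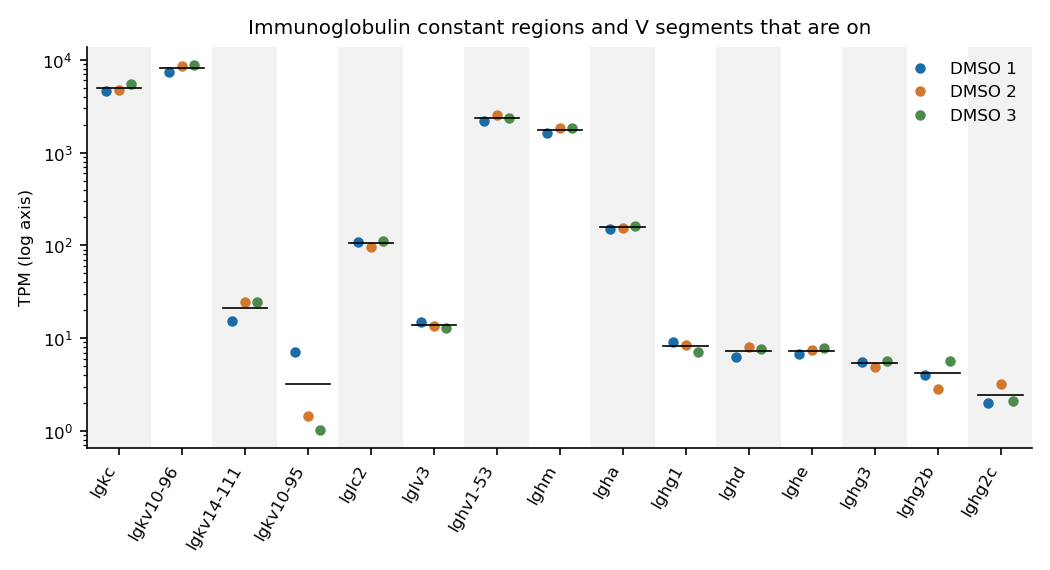
TPM (y axis, log) of the immunoglobulin constant regions and V segments that were on, with 1 point per DMSO library and a bar at the mean. Igkv10-96, Igkc, Ighv1-53 and Ighm lie above 1000 TPM in every library, Igha near 156 TPM, and the other heavy constant regions below 10 TPM.

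The libraries carried the markers of a mature B cell, with 22 of 24 surface and signalling markers on (91.7%, beside 46.4% of protein-coding genes) at a median of 79.2 TPM. Cd79a, a signalling chain of the B cell receptor, had 329, 309.5 and 319 TPM, and its partner Cd79b 141 ± 9.84 TPM. The tetraspanin Cd81 (112 ± 9.08 TPM), the adaptor Blnk (179 ± 9.9 TPM), CD20 (Ms4a1, 85.1 ± 4.35 TPM) and the inhibitory lectin Cd22 (41.8 ± 4.46 TPM) were on in every library. Cd52, a small glycoprotein of lymphocytes, was the highest after Ighm with 885 ± 53.5 TPM. Complement receptor 2 (Cr2) was off with 3, 0 and 0 counts, and Cd38 was low with 24, 45 and 37 counts.

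Of 32 B lineage transcription factors 29 were on (90.6%, beside 46.4% of protein-coding genes), at a median of 39 TPM. Pax5, which holds B cell identity, had 34.2, 33.8 and 25.9 TPM, and Ebf1 16.7, 21.1 and 17.3 TPM. The highest were the E protein Tcf3 (245 ± 14.2 TPM), the ETS factor Spib (164 ± 13 TPM), the octamer coactivator Pou2af1 (136 ± 3.96 TPM), Mef2c (112 ± 10.8 TPM), Irf4 (105 ± 6.43 TPM) and the Ikaros family member Ikzf3 (87.2 ± 1.28 TPM). The ratio of Irf4 to Irf8 was 1.85 ± 0.0678 in TPM and 3.33 in counts. Bcl6, the repressor that directs the germinal centre programme, and Ikzf2 had 0 counts in all libraries, and Klf2 was low with 0, 0 and 4 counts. Bach2, a repressor of plasma cell differentiation, was on at 2.99 ± 0.429 TPM.

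For these genes and the most abundant gene of the set, the 120 bases before the annotated start are shown from RefSeq (GRCm38.p6), because the start regions of genes that were all on differ widely in CpG content. The capitals mark CG dinucleotides. The deposited values were made on another build and were not placed on these coordinates. Eef1a1 (chr9:78481725-78481844, - strand) had 9 CG in the 120 bases, Pax5 (chr4:44710695-44710814, - strand) 6, Cd79a (chr7:24897377-24897496, + strand) 4, Jchain (chr5:88527898-88528017, - strand) 2 and Ccl22 (chr8:94745564-94745683, + strand), the most abundant chemokine gene, 1.
Eef1a1: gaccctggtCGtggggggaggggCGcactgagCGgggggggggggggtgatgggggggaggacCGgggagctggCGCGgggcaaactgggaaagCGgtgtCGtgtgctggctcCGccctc
Pax5: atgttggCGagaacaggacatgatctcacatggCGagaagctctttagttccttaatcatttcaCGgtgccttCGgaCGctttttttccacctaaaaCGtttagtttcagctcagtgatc
Cd79a: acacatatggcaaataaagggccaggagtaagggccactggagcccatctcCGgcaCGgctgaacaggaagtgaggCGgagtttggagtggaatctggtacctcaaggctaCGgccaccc
Jchain: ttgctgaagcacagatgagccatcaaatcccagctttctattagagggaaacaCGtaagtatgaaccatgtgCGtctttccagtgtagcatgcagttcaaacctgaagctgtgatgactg
Ccl22: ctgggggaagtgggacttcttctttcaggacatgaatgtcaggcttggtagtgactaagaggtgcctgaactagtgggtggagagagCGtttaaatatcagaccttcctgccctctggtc

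Among these 5 genes the level did not follow the CpG count. In the bases shown above, Ccl22 (3470 TPM) had 1 CG and Pax5 (31.3 TPM) had 6. Promoters of 300 bases (250 before the start and 50 after it) were found by symbol for 8177 of 10108 protein-coding genes that were on (80.9%), as 10451 promoters. Their median was 21 CG, beside 14 CG over all 20381 promoters matched to the count table. In this wider window of 300 bases, Eef1a1 had 22 CG, Pax5 23, Cd79a 8, Jchain 3 and Ccl22 8. The sequence GGGCGG, searched on both strands, was in 63.9% of promoters of genes that were on and in 47.6% of all, CCGGAA in 30.1% and 18.97%, CACGTG in 10.4% and 8.04%, and TATAAA in 6.58% and 12.4%. CCAAT was in 38.6% and 38.1%, GAGGAA in 25.9% and 27.2%, and ATGCAAAT in 1.31% and 1.60%. CCGGAA and GAGGAA share the letters GGAA. Only 73.5% of genes that were off had a promoter in the table, so on and off were not compared directly. The set of all promoters includes those of genes that were on, and the shares above carry the same unequal coverage.

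Stage markers were mixed. Of 14 germinal centre genes 11 were on (78.6%, beside 46.4% of protein-coding genes), at a median of 5.22 TPM. Among the highest were the G protein regulator Rgs13 (209 ± 19.7 TPM), Cxcr4 (161 ± 6.58 TPM), Fas (85.7 ± 3.97 TPM) and Mef2b (64.9 ± 1.99 TPM). Gna13 (54.1 ± 1.07 TPM) followed, whereas Bcl6 and Gcsam had 0 counts. Plasma cell genes had 14 of 17 on (82.4%, beside 46.4% of protein-coding genes), with a median of 27.3 TPM. The secretory genes Sec11c (220 ± 1.72 TPM), Xbp1 (116 ± 4.28 TPM) and Txndc5 (111 ± 5.71 TPM) were high, while Prdm1, which encodes the plasma cell regulator Blimp-1, had only 2.48, 2.83 and 2.43 TPM. Within each library the ratio of Xbp1 to Prdm1 was 45.2 ± 2.25 in TPM, and in counts it was 18.2. The plasma cell surface markers syndecan-1 (Sdc1) and BCMA (Tnfrsf17) were off, with 3, 3 and 0 counts and 0 counts, and Slamf7 was on at 10.9 ± 0.578 TPM.

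Genes of B cell precursors were mostly silent, with 3 of 13 on (23.1%, beside 46.4% of protein-coding genes). The 3 were Vpreb3 (38.1 ± 3.22 TPM), Cd93 (4.79 ± 0.658 TPM) and Flt3 (1.92 ± 0.111 TPM). The recombinase gene Rag1 had 0, 6 and 0 counts and Rag2 had 0. Dntt, which adds bases at V(D)J joints, had 2, 3 and 2 counts, the surrogate light chain gene Vpreb1 7, 0 and 0, and its partner Igll1 had 0. Rag1 and Vpreb1 were thus low, while Rag2, Dntt, Igll1, Kit, Erg, Vpreb2 and Sox4 were off. Of 9 genes associated with B-1 cells 7 were on, led by Bhlhe40 (91.1 ± 8.27 TPM), Zbtb32 (48.1 ± 4.7 TPM) and Bhlhe41 (31 ± 1.24 TPM), with Cd5 at 15.5 ± 1.64 TPM and Lin28b at 0 counts.

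Lists of markers of other cell types are shown in the plot of lineage and stage lists. Of 24 T and NK cell markers 4 were on (16.7%, beside 46.4% of protein-coding genes). These were Lck (28.9 ± 0.519 TPM), Cd28 (11.3 ± 0.387 TPM), Cd7 (8.9 ± 1.27 TPM) and Prf1 (7.54 ± 0.761 TPM). The defining T cell genes had few counts, with Cd3e at 0, 0 and 1 counts, Cd3g at 6, 9 and 1, Cd4 at 24, 6 and 16, Cd8a at 25, 22 and 11, Zap70 at 10, 8 and 1 and Trac at 16, 26 and 26. Cd3d had 14, 1 and 16 counts but 0.28, 0.030 and 4.76 TPM, so similar counts gave very different TPM and its mean carries no weight. The NK genes Ncr1 and Gzma had 0 counts, Nkg7 had 1, 4 and 0 and Klrb1c 8, 0 and 9. The summed level of the 24 markers was between 59.7 and 62.3 TPM.

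Of 17 myeloid markers 4 were on (23.5%, beside 46.4% of protein-coding genes). These were the CSF1 receptor Csf1r (11.3 ± 1.04 TPM), Cd68 (8.97 ± 0.894 TPM), Cebpb (4.12 ± 0.512 TPM) and Adgre1 (1.94 ± 1.39 TPM). Lyz2, the lysozyme of macrophages and neutrophils, had 2, 1 and 0 counts, Elane 0, 1 and 1, Mpo 8, 0 and 6, Itgam 20, 6 and 5, and Cd14, S100a8 and S100a9 had 0. Of 7 dendritic cell markers 3 were on (42.9%, beside 46.4% of protein-coding genes), which were Batf3 (30.4 ± 2.94 TPM), Zbtb46 (16.4 ± 1.16 TPM) and Flt3 (1.92 ± 0.111 TPM), while Itgax had 15, 2 and 15 counts, and Siglech and Clec9a had 0. Mast cell and basophil markers had 0 of 8 on, with Kit, Cpa3, Mcpt8, Cma1, Ms4a2, Tpsb2 and Prss34 off and Fcer1a at 0, 7 and 0 counts. Summed levels were 24.8 to 30.9 TPM for the myeloid list, 47.3 to 52.1 TPM for the dendritic list and 0 to 0.520 TPM for the mast cell list.

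Of 12 erythroid and megakaryocyte markers 3 were on, all globins: Hba-a1 (9.24 ± 0.20 TPM), Hba-a2 (5.66 ± 1.71 TPM) and Hbb-bt (2.23 ± 0.312 TPM). The alpha globin copies share their sequence and cannot be told apart with certainty. Hbb-bs, Pf4 and Ppbp had 0 counts, Klf1 had 109, 28 and 71, Gata1 31, 38 and 22 and Itga2b was low at 0.247 ± 0.156 TPM. None of 15 stromal, endothelial and epithelial markers was on. Vim, an intermediate filament gene of many mesenchymal and blood cells, was low with 58, 45 and 44 counts, Col1a1 had 7, 7 and 3, Pdgfrb 36, 64 and 41, Pecam1 27, 33 and 31, Cdh5 54, 53 and 85, Epcam 0, 2 and 0, Krt8 0, 1 and 0, and Col3a1 and Krt18 had 0. Among 12 germline markers and 18 developmental regulators 0 were on, and the germline genes Prm1, Stra8, Ddx4, Sycp1, Piwil1, Prm2, Mael and Tex101 were off. The Y chromosome had 0 counts over 173 protein-coding genes, Kdm5d, Uty, Ddx3y and Eif2s3y among them. On the X chromosome 31.5% of protein-coding genes were on, below the autosomal range of 37.8 to 55.5%.

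**Figure D3:**
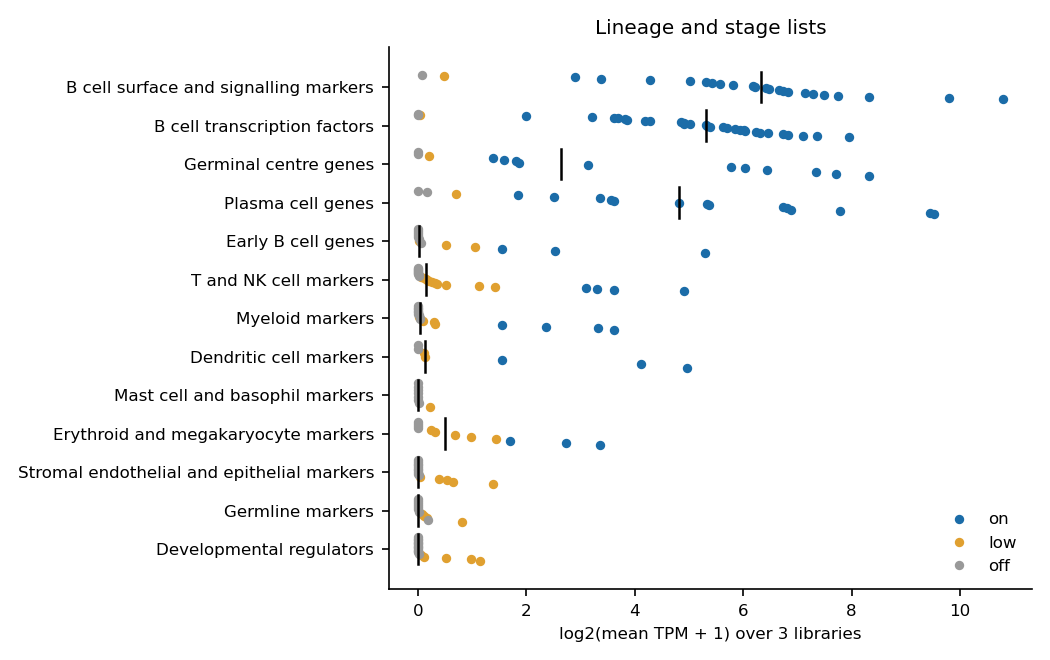
Each point is 1 gene at log2(mean TPM + 1) over the 3 libraries (x axis), by list (y axis), coloured by on, low or off, with a black bar at the list's median. B cell marker and factor lists sit highest, and the medians of the early B cell list and of the lists of other cell types lie at or near 0.

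The signalling chain below the B cell receptor was present from receptor to second messengers, with 30 of 35 genes on at a median of 39 TPM. Beside Cd79a and Blnk, the highest included the phosphatase gene Ptpn6 (178 ± 6.46 TPM) and the protein kinase C gene Prkcb (163 ± 5.27 TPM). The proximal kinases differed in level: Btk (41.7 ± 0.62 TPM) lay above Syk (27.7 ± 2.2 TPM), and Fyn (42.2 ± 2.96 TPM) and Blk (39 ± 0.65 TPM) above Lck (28.9 ± 0.519 TPM) and Lyn (17.1 ± 1.26 TPM). Lyn, the main SRC family kinase of resting B cells, made up 13.4 ± 1.08% of the TPM of 6 such kinases and Fyn 33.1 ± 1.53%. Vav3 and Cr2 were off, and Fgr and Rasgrp1 were low. Plcg2 (109 ± 4.77 TPM), Malt1 (99.2 ± 14.8 TPM) and Bcl10 (57.2 ± 2.38 TPM) on the path to NF-kB were on.

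Of 18 inhibitory receptors 16 were on and 2, Lair1 and Pecam1, were low. Their median was 8.19 TPM. The highest were Cd72 (46.7 ± 3.74 TPM), Cd22 (41.8 ± 4.46 TPM), Fcrl1 (21.3 ± 2.48 TPM), Btla (17.5 ± 0.493 TPM), Cd5 (15.5 ± 1.64 TPM) and Siglecg (11.5 ± 2.66 TPM). The T cell checkpoint genes Ctla4 (11.4 ± 0.21 TPM), Lag3 (11.3 ± 1.19 TPM) and Pdcd1 (2.27 ± 0.533 TPM) were also on in all 3 libraries. Fcgr2b, the inhibitory Fc receptor of B cells, was at 6.01 ± 0.873 TPM.

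Receptors and relays for each of the 3 stimuli were on. Cd40 had 66.6, 79.6 and 69 TPM, highest in DMSO 2. Within its receptor family 9 of 15 genes were on (60%, beside 46.4% of protein-coding genes). The BAFF and APRIL receptor genes Tnfrsf13b (301 ± 22.1 TPM) and Tnfrsf13c (128 ± 0.931 TPM) were the highest. The ratio of these 2 was 2.36 ± 0.156. Cd27, Ltbr and Tnfrsf17 were off. All 12 TRAF and CD40 adaptor genes were on, at a median of 43.8 TPM, with the ubiquitin ligase gene Birc3 (106 ± 6.54 TPM), the feedback inhibitor Tnfaip3 (100.2 ± 4.3 TPM) and Traf1 (85.1 ± 0.788 TPM) at the top. Map3k14, the kinase NIK of the non-canonical NF-kB pathway, was lowest at 6.34 ± 0.135 TPM.

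All 15 NF-kB subunit and inhibitor genes were on, at a median of 44 TPM. The inhibitor Nfkbia had 393, 482 and 499.8 TPM, lowest in DMSO 1, and was followed by Nfkb1 (188 ± 9.71 TPM), Nfkbie (169 ± 4.05 TPM) and Nfkb2 (139 ± 9.72 TPM). Among the 5 subunits, Nfkb1 took 40 ± 0.681% of TPM, Nfkb2 29.5 ± 0.382%, Relb 13.3 ± 0.661%, Rela 9.3 ± 0.918% and Rel 7.87 ± 0.465%. The atypical inhibitors Nfkbid (82.7 ± 2.8 TPM) and Nfkbib (74.9 ± 0.263 TPM) were also high.

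For IL-4, 16 of 17 pathway and target genes were on, at a median of 31.8 TPM. The receptor chain Il4ra had 14.1, 16.6 and 13.3 TPM, well below its shared partner Il2rg (139 ± 5.15 TPM). Stat6, which carries the signal to the nucleus, had 50.2, 53.3 and 49.1 TPM. Targets of the pathway were high, with Batf (211 ± 8.92 TPM), Nfil3 (113 ± 1.34 TPM), Il4i1 (100.3 ± 1.24 TPM), Cd86 (97.9 ± 5.0 TPM) and the low-affinity IgE receptor Fcer2a (73.3 ± 3.09 TPM). Il13ra1, the chain of the alternative IL-4 receptor, had 0 counts. Germline transcription of Ighe and Ighg1, which IL-4 induces in B cells, was not separable from other transcripts of those regions, and they had 7.34 ± 0.599 TPM and 8.21 ± 0.998 TPM. All 7 STAT genes were on, from Stat2 (5.27 ± 1.0 TPM) to Stat5a (82.8 ± 10.8 TPM).

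For TGF-beta, 23 of 31 genes were on (74.2%, beside 46.4% of protein-coding genes), at a median of 7.79 TPM. The receptor genes Tgfbr2 and Tgfbr1 had 35.5, 37.4 and 35.5 TPM and 26.4, 27.5 and 26.1 TPM, and their ratio varied little among libraries, at 1.36 ± 0.00782. Signal carriers differed: Smad4 (39.4 ± 3.13 TPM) and Smad2 (23.4 ± 3.35 TPM) lay above Smad3 (5.94 ± 0.39 TPM). The inhibitor Smad7 had 27.4, 19.4 and 17.8 TPM, highest in DMSO 1. Runx3, which with its partner Cbfb (66.6 ± 4.19 TPM) drives germline transcription of Igha, had 42.3, 42.5 and 37.3 TPM and made up 78 ± 3.97% of the 3 RUNX genes. Among 3 ligand genes Tgfb1 had the most RNA, with 55.2 ± 1.14 TPM and 98.3 ± 0.108% of their TPM. The high members Tgif1 (62.4 ± 5.97 TPM) and Bmpr1a (57.2 ± 2.75 TPM) belong to the corepressors and to the BMP receptors. Smad1, Smad9, Acvr1, Tgfbr3, Tgfb2 and Bmpr1b were off.

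Of 39 genes of the class switching apparatus 38 were on (97.4%, beside 46.4% of protein-coding genes), at a median of 43 TPM. The endonuclease gene Apex1 (349 ± 10.6 TPM) was the highest. The damage-marking histone gene H2ax had 224 ± 9.72 TPM, the single-strand binding gene Rpa1 (166 ± 14.8 TPM), and the RNA exosome subunit Exosc3 (140.2 ± 6.97 TPM). Elongation factor genes of the list were at 51.4 to 137 TPM, with Supt4a (137 ± 5.07 TPM), Supt5 (80.4 ± 6.14 TPM) and Supt6 (51.4 ± 3.52 TPM). Mismatch genes included Exo1 (56.1 ± 4.33 TPM) and Msh6 (50.5 ± 2.66 TPM).

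Genes that protect broken ends from resection were on at moderate to low levels. They were Trp53bp1 (42.8 ± 5.36 TPM), Mad2l2 (45.2 ± 4.67 TPM), Rif1 (23.8 ± 2.47 TPM), Shld2 (18.5 ± 2.29 TPM), Shld3 (6.23 ± 0.748 TPM) and Shld1 (4.8 ± 1.24 TPM). Hmces, which shields abasic sites, was the only member off, with 0, 0 and 3 counts. Of the APOBEC genes, Apobec1 (31.8 ± 3.9 TPM), Apobec3 (21.5 ± 2.95 TPM) and Apobec2 (3.11 ± 0.325 TPM) were on and Apobec4 had 0 counts.

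Both end joining pathways were transcribed. In classical end joining 9 of 10 genes were on, at a median of 8.78 TPM, with the KU genes Xrcc6 (55.9 ± 1.49 TPM) and Xrcc5 (42.2 ± 2.43 TPM) highest. Poll (18.1 ± 1.03 TPM), Paxx (9.71 ± 1.46 TPM), Polm (8.83 ± 1.26 TPM) and Xrcc4 (8.73 ± 1.27 TPM) followed, and Lig4 was the gene not on. In alternative end joining 12 of 12 genes were on, at a median of 37 TPM. Parp1 led with 288, 306 and 265 TPM, then the ligases and partners Lig1 (113 ± 6.62 TPM), Xrcc1 (90.6 ± 5.32 TPM), Parp2 (90.4 ± 1.27 TPM), Fen1 (82.5 ± 2.49 TPM) and Mre11a (39.1 ± 2.74 TPM). Lig3 was at 34.6 ± 0.375 TPM. Polq, the polymerase of microhomology-mediated joining, was lowest with 7.68, 8.64 and 7.03 TPM.

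Homologous recombination had 16 of 17 genes on, at a median of 13.5 TPM, and the highest included Swi5 (348 ± 9.21 TPM), Sfr1 (124 ± 6.76 TPM), Blm (38 ± 2.67 TPM), Rad54l (26.8 ± 1.18 TPM) and Rad51d (23.1 ± 2.22 TPM). The meiotic recombinase gene Dmc1 had 0 counts. Of 17 checkpoint genes 17 were on, with Tipin (284 ± 28.5 TPM) and Trp53 (229.8 ± 11.2 TPM) highest and Atm (8.24 ± 0.679 TPM) lowest. Chek1 (45.8 ± 4.59 TPM) lay above Chek2 (9.87 ± 2.1 TPM). Among 17 p53 target genes 15 were on and Eda2r and Phlda3 had 0 counts. The apoptosis gene Bax (246 ± 22.7 TPM) was the highest, and Cdkn1a, the cell cycle inhibitor p21, had 2.53, 2.46 and 2.44 TPM.

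**Figure D4:**
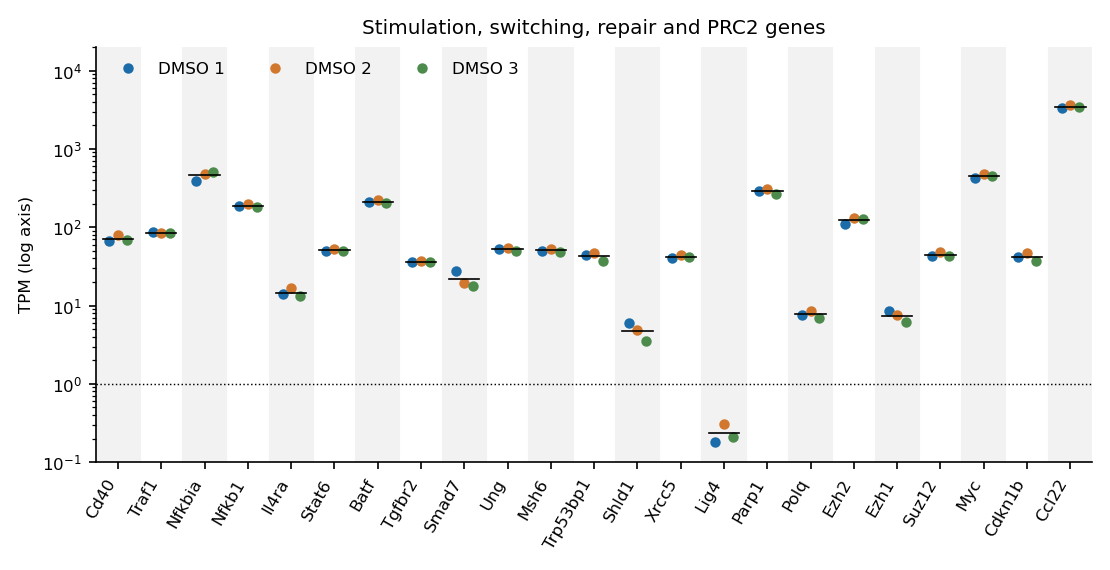
TPM (y axis, log) of genes for the stimuli, switching, repair and PRC2, with 1 point per DMSO library, a bar at the mean and the limit of 1 TPM dotted. Ccl22 stands highest, Nfkbia and Myc follow, and Lig4 is the only gene under 1 TPM.

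PRC2, the complex the drugs of the other libraries act on, was on with 11 of 13 genes at a median of 40.5 TPM. Ezh2 had 109.7, 129.8 and 127 TPM, lowest in DMSO 1, and its paralog Ezh1 8.51, 7.53 and 6.17 TPM, highest in DMSO 1. The opposite order did not appear in counts, where the ratio of Ezh2 to Ezh1 was 9.46, 9.97 and 9.47, beside 12.9, 17.2 and 20.6 in TPM. Ezh2 made up 94.2 ± 1.31% of the TPM of the 2 methyltransferase genes. The core partners Eed (85.6 ± 2.2 TPM) and Suz12 (44.7 ± 3.0 TPM) and the histone binders Rbbp7 (315 ± 11 TPM) and Rbbp4 (98.3 ± 4.33 TPM) were on. Accessory subunits included Aebp2 (96.2 ± 7.72 TPM), Mtf2 (40.5 ± 4.84 TPM), Phf19 (26.1 ± 1.16 TPM) and Jarid2 (14.2 ± 0.775 TPM), while Epop was off and Phf1 low at 0.703 ± 0.172 TPM.

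PRC1 had 19 of 19 genes on, at a median of 24.3 TPM, and the highest included Kdm2b (80.5 ± 12.2 TPM), Phc2 (70.1 ± 5.08 TPM), Rnf2 (54.3 ± 6.93 TPM), Yaf2 (41.4 ± 2.91 TPM) and Pcgf6 (38.4 ± 2.27 TPM). Bmi1 was at 35.6 ± 0.576 TPM. The H3K27 demethylase genes were Kdm6a (26.2 ± 2.61 TPM) and Kdm6b (8.43 ± 1.44 TPM), the acetyltransferase genes Ep300 (21 ± 1.64 TPM) and Crebbp (9.17 ± 1.39 TPM), and the Y-linked Uty had 0 counts. In DNA methylation 13 of 14 genes were on, with Uhrf1 (160.1 ± 9.87 TPM), Mbd3 (134 ± 7.92 TPM), Dnmt1 (98.5 ± 6.22 TPM), Tdg (94.3 ± 6.11 TPM), Mbd2 (52.7 ± 1.78 TPM) and Mbd1 (36.2 ± 4.29 TPM) highest. Dnmt3a took 61.6 ± 2.09% and Dnmt3b 33.5 ± 2.22% of the de novo group. Tet2 (12.3 ± 3.27 TPM) and Tet3 (9.1 ± 1.11 TPM) were on and Tet1 low (0.227 ± 0.272 TPM).

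Antigen presentation genes were abundant. All 17 class II genes were on, at a median of 196 TPM, and together held 1.2 ± 0.0273% of TPM. Cd74 had 5899, 6016 and 6207 TPM. The peptide-binding chains followed with H2-Ea (1502 ± 91.5 TPM), H2-Aa (1302 ± 59.9 TPM), H2-Eb1 (1045 ± 27.9 TPM) and H2-Ab1 (341 ± 17.2 TPM), then the lysosomal reductase Ifi30 (485 ± 10.5 TPM). In TPM, alpha and beta chains were unequal, with a ratio of H2-Aa to H2-Ab1 of 3.83 ± 0.353 and of H2-Ea to H2-Eb1 of 1.44 ± 0.119. H2-Ea is annotated as a polymorphic pseudogene, and whether reads of these chains mapped equally well was not tested. The master regulator Ciita had 93.8, 97.4 and 78 TPM. Class I had 22 of 23 genes on, at a median of 39.6 TPM, with B2m (955 ± 79 TPM), H2-K1 (836 ± 98.8 TPM), Calr (689 ± 27.7 TPM), H2-D1 (327 ± 5.26 TPM), Pdia3 (253 ± 12.9 TPM) and Psmb8 (219.8 ± 13.3 TPM) highest. Class I heavy chain genes are near-copies of each other, so their single values are uncertain, and H2-Q10 was low.

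Ligands for T cells were on in 14 of 15 cases, at a median of 39.9 TPM. The highest were the adhesion receptor Cd44 (151 ± 8.69 TPM), the activation marker Cd83 (146 ± 9.38 TPM), Cd70 (100.2 ± 15.1 TPM), Tnfsf9 (99.3 ± 7.16 TPM), Cd86 (97.9 ± 5.0 TPM) and Icam1 (94.7 ± 4.45 TPM). The ratio of Cd86 to Cd80 was 2.45 ± 0.0403. PD-L1 (Cd274) was at 6.39 ± 0.799 TPM and PD-L2 (Pdcd1lg2) was low.

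Among 39 listed cytokine and chemokine genes, 1 chemokine gene held most of the TPM. The cytokine-like Mif (3407 ± 181 TPM) is not in that list, and secreted protein was not measured. Ccl22, which attracts CCR4-bearing T cells, had 3358, 3633 and 3420.1 TPM and made up 87.5 ± 0.409% of the TPM of 39 cytokine and chemokine genes. Next came Ebi3 (241 ± 10.6 TPM), the shared subunit of IL-27 and IL-35, Ltb (126 ± 7.9 TPM), Il16 (55.8 ± 1.11 TPM), Tnf (17.2 ± 0.455 TPM) and Il12a (13.1 ± 1.93 TPM). The ratio of Ccl22 to Ebi3 was 14.4 ± 0.521 in TPM and 31.95 in counts. In all 14 of the 39 were on (35.9%, beside 46.4% of protein-coding genes) and 13 off, at a median of 0.43 TPM. Ccl17, the other CCR4 ligand, was low at 1.14 ± 0.368 TPM, Il10 was on at 4.21 ± 1.58 TPM and Il6 low at 0.617 ± 0.43 TPM.

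Of 32 cytokine receptor genes 22 were on (68.75%, beside 46.4% of protein-coding genes), at a median of 9.57 TPM. Highest were Il21r (185 ± 7.94 TPM), Il2rg (139 ± 5.15 TPM), Il5ra (86.9 ± 7.3 TPM), Il9r (61.2 ± 6.06 TPM), Ifngr2 (54.9 ± 2.11 TPM) and Csf2rb (39.1 ± 3.17 TPM). Those off were Csf3r, Il13ra1, Il12rb2, Il1rl1, Il18r1 and Il1r1. Of 22 trafficking receptors 16 were on (72.7%, beside 46.4% of protein-coding genes), at a median of 8.0 TPM. Ccr7, which guides cells to lymphoid tissue, had 259.9, 284 and 267 TPM, followed by Cxcr4 (161 ± 6.58 TPM), Itgb1 (73 ± 4.08 TPM), Itgal (67.5 ± 5.4 TPM), Cxcr5 (66.9 ± 6.28 TPM) and Selplg (64.9 ± 7.77 TPM).

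Of 28 innate sensor genes 15 were on (53.6%, beside 46.4% of protein-coding genes) and 9 off, at a median of 2.1 TPM. The highest were the RP105 pair Ly86 (157 ± 13.2 TPM) and Cd180 (79.2 ± 4.56 TPM), then Sting1 (98.8 ± 3.01 TPM), Mavs (36.3 ± 1.47 TPM), Aim2 (31.8 ± 3.28 TPM) and Myd88 (27.9 ± 2.2 TPM). Cgas, which makes the ligand of STING, had 0, 0 and 3 counts and was off. Tlr7 (11.5 ± 2.76 TPM) and Tlr9 (4.24 ± 0.755 TPM) were on, and Tlr3, Tlr5, Tlr8, Tlr11 and Cd14 had 0 counts. Of 28 interferon-stimulated genes 14 were on (50%), at a median of 1.18 TPM, with Bst2 (74.4 ± 1.54 TPM), Adar (23.2 ± 3.35 TPM), Ifi35 (21.8 ± 2.18 TPM), Irf1 (17.9 ± 3.67 TPM) and Isg15 (11.2 ± 1.01 TPM) among the highest. Those off were Ifit1, Rsad2, Ifi44, Oas2 and Iigp1. Fc and complement receptor genes had 6 of 15 on (40%, beside 46.4% of protein-coding genes), led by Fcer1g (88.2 ± 4.66 TPM) and Fcer2a (73.3 ± 3.09 TPM), with Cr2 and C5ar1 off.

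Genes of cell division were on throughout. All 22 proliferation and replication genes were on, at a median of 114 TPM, led by Pcna (289 ± 5.98 TPM), Top2a (285 ± 17 TPM), Mcm6 (284 ± 15.1 TPM), Mcm5 (209 ± 14.1 TPM), Cdc20 (169 ± 8.29 TPM) and Mcm3 (166 ± 14 TPM). Mki67 was at 46.6 ± 3.14 TPM. Of 14 cyclins and cyclin-dependent kinases 12 were on, with Cdk4 (491 ± 51.5 TPM), Cdk1 (249 ± 8.06 TPM), Ccnb1 (154 ± 15 TPM), Ccna2 (124 ± 5.86 TPM) and Ccnb2 (102 ± 2.61 TPM) highest and the germline cyclins Ccna1 and Ccnb3 at 0 counts. Ccnd3 made up 58.5 ± 0.673% of the D-type cyclin TPM, Ccnd2 24.9 ± 0.774% and Ccnd1 16.7 ± 0.911%. All 11 RB and E2F genes were on, with E2f4 (103 ± 3.22 TPM) highest.

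Of 7 CDK inhibitor genes 4 were on (57.1%, beside 46.4% of protein-coding genes) and 3 off. Cdkn1b, which encodes p27, had 41.6, 47.5 and 37.6 TPM, and Cdkn2c (9.22 ± 0.424 TPM), Cdkn2d (6.6 ± 0.284 TPM) and Cdkn1a (2.48 ± 0.0473 TPM) were lower. Cdkn2a and Cdkn2b, neighbours at the INK4 locus and known Polycomb targets, had 0 counts in each library, and Cdkn1c was off. Myc had 419, 473 and 457 TPM, lowest in DMSO 1, and made up 99.4 ± 0.072% of the 3 MYC paralogs, with Mycn at 0 counts and Mlxipl of the wider network also off. Its partner Max had 62.5, 72.6 and 88.7 TPM. Of 13 genes in the MYC network 11 were on, and Mxi1 (42.4 ± 2.98 TPM), Mga (26.2 ± 3.41 TPM), Mlx (21 ± 2.02 TPM) and Mxd4 (14.5 ± 0.364 TPM) came next.

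In the BCL2 family, survival genes were dominated by the A1 group. Bcl2a1b, Bcl2a1d and Bcl2a1a had 563 ± 13 TPM, 412 ± 10.6 TPM and 251 ± 4.22 TPM. These copies are nearly identical, so their single values are uncertain. Their sum, and shares of this set, are firm only if reads shared between copies were kept, which the labels do not say. Bcl2l1 (139 ± 2.11 TPM) and Mcl1 (133 ± 4.55 TPM) followed, and Bcl2 itself was low among them with 12.2, 13.2 and 10.7 TPM, 0.795 ± 0.0865% of the anti-apoptotic TPM. On the side of death, Bax (246 ± 22.7 TPM) was highest, and Bid (52.9 ± 2.64 TPM), Pmaip1 (43 ± 2.38 TPM) and Bcl2l11 (35.4 ± 1.65 TPM) were lower. In all 20 of 24 genes were on, and Bok and Hrk were off.

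AP-1 genes had 11 of 17 on (64.7%, beside 46.4% of protein-coding genes), at a median of 9.87 TPM. Jund (469 ± 28.5 TPM) and Junb (388 ± 32.8 TPM) led, then Batf (211 ± 8.92 TPM), Maff (41 ± 4.86 TPM), Batf3 (30.4 ± 2.94 TPM) and Mafg (24.3 ± 3.25 TPM). Jun made up 2.75 ± 0.124% of the 3 JUN genes and Fos was at 9.87 ± 1.21 TPM. Batf2 and Maf were off. Of 14 immediate early genes 10 were on, with Dusp2 (299.6 ± 33.3 TPM), Ier2 (247 ± 11.9 TPM), Ier3 (75.3 ± 7.44 TPM), Dusp1 (30.7 ± 0.156 TPM), Dusp5 (23.2 ± 2.35 TPM) and Nr4a1 (13.8 ± 2.83 TPM) highest, and Egr1 low at 0.207 ± 0.0833 TPM.

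Genes of glycolysis held 2.34 ± 0.0674% of TPM, with 21 of 32 genes on (65.6%, beside 46.4% of protein-coding genes). Eno1 (3805 ± 139 TPM), Aldoa (2702 ± 71.2 TPM), Ldha (2678 ± 23.6 TPM), Pkm (2414 ± 48.6 TPM) and Pgk1 (1514 ± 15.2 TPM) followed Gapdh. Ldha made up 100% of lactate dehydrogenase TPM in DMSO 2 and DMSO 3, and Ldhb had 3, 0 and 0 counts. Pklr and Ldhc had 0 counts. Hexokinase was shared, Hk2 with 56.2 ± 1.58% and Hk1 with 43.6 ± 1.57%, as were the glucose transporters Slc2a3 with 54.9 ± 0.925% and Slc2a1 with 43.8 ± 1.3%.

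Amino acid transporters had 9 of 10 on, led by the CD98 pair Slc3a2 (333 ± 7.7 TPM) and Slc7a5 (298 ± 16.4 TPM), then Slc38a2 (166 ± 11.2 TPM), Slc1a5 (109 ± 8.64 TPM), Slc1a4 (96 ± 4.03 TPM) and Slc38a1 (82.3 ± 5.08 TPM). Slc7a11, the cystine importer, had 0 counts in every library. Asns, which makes asparagine, also had 0 counts, and was the only 1 of 22 unfolded protein response genes that was off. The list's median was 103 TPM, led by Hspa5 (727 ± 18.7 TPM), Calr (689 ± 27.7 TPM), Hsp90b1 (563 ± 20.2 TPM), Atf4 (505 ± 5.78 TPM), Pdia6 (410.2 ± 1.43 TPM) and Manf (337 ± 31.5 TPM). Atf4, which activates Asns and Slc7a11 in stressed cells, was on at a high level beside these 2 genes, and its targets Trib3 (80.3 ± 1.84 TPM) and Ddit3 (80 ± 6.8 TPM) were on. All 23 cholesterol synthesis genes were on, at a median of 67.7 TPM, with Fdps (388 ± 10.3 TPM), Idi1 (279 ± 17.5 TPM), Cyp51 (214 ± 12.7 TPM), Srebf2 (198 ± 10.3 TPM), Sqle (182 ± 7.91 TPM) and Hmgcs1 (174 ± 9.25 TPM) highest.

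Translation factors had 16 of 18 on, at a median of 1071 TPM, and held 3.11 ± 0.106% of TPM. After Eef1a1 came Tpt1 (3732 ± 269 TPM), Eef2 (2535 ± 99.3 TPM), Ybx1 (2201 ± 262 TPM), Eif5a (2108 ± 79.5 TPM) and Eef1b2 (1723 ± 79.1 TPM), and Eif5a2 had 0 counts. Of 24 cytoskeleton and chaperone genes 21 were on, led by Ppia, Npm1, Hsp90ab1 (3686 ± 146 TPM), Hspa8 (1568 ± 33.4 TPM), Tuba1b (1562 ± 61 TPM) and Actb (1503 ± 73.8 TPM). The heat shock copies Hspa1a and Hspa1b had 0 counts in all libraries. They are near-identical to each other, and the labels do not say whether reads shared between copies were discarded.

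The 3 libraries were close to each other. Over the 10541 genes that were on, log2(TPM + 1) correlated between libraries at Pearson's r of 0.991 to 0.993, a description across genes, which are not independent replicates. Between any pair, 98.8 to 99.1% of these genes lay within 2-fold in TPM. Counts of each pair differed by more than counting noise, with a chi-square per degree of freedom of 10.5 to 13.6, a check for libraries deposited more than once that says nothing about separate cultures. The biological coefficient of variation over 11567 genes was 0.0692. Among 7600 genes that were on with a mean of at least 10 TPM, the SD of log2 CPM had a median of 0.07, and 26 genes (0.342%) were above 0.5. The log2 ratio of libraries had a rank correlation with exon length of -0.24, 0.10 and 0.33 for DMSO 1 over 2, 1 over 3 and 2 over 3, and its part in the spread between libraries was not tested.

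Many of the most variable genes had few counts or were copies of other genes. Of the 15 with the largest SD, 7 were protein-coding, 7 were pseudogenes and 1 was not matched. Nnt, the mitochondrial proton-pumping transhydrogenase, was the most highly counted of them. It had 2277, 1385 and 626 counts, or 48.8, 40.6 and 17.6 CPM, lowest in DMSO 3. The replication histone genes H2ac15 and H2ac12, whose mRNA mostly lacks poly(A), had 26, 23 and 57 and 99, 97 and 199 counts, both highest in DMSO 3. Rn7s1, a signal recognition particle RNA copy, had 739, 159 and 147 counts, highest in DMSO 1, and Derpc 132, 322 and 156, highest in DMSO 2. The others were Gm12191 (21.5 ± 14.3 TPM), Gm4294, Gm10177, Rpl36a-ps2, Gm21992, Gm7846, Gm8186, Gm28036, Gm29394 and Gm12751.

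**Figure D5:**
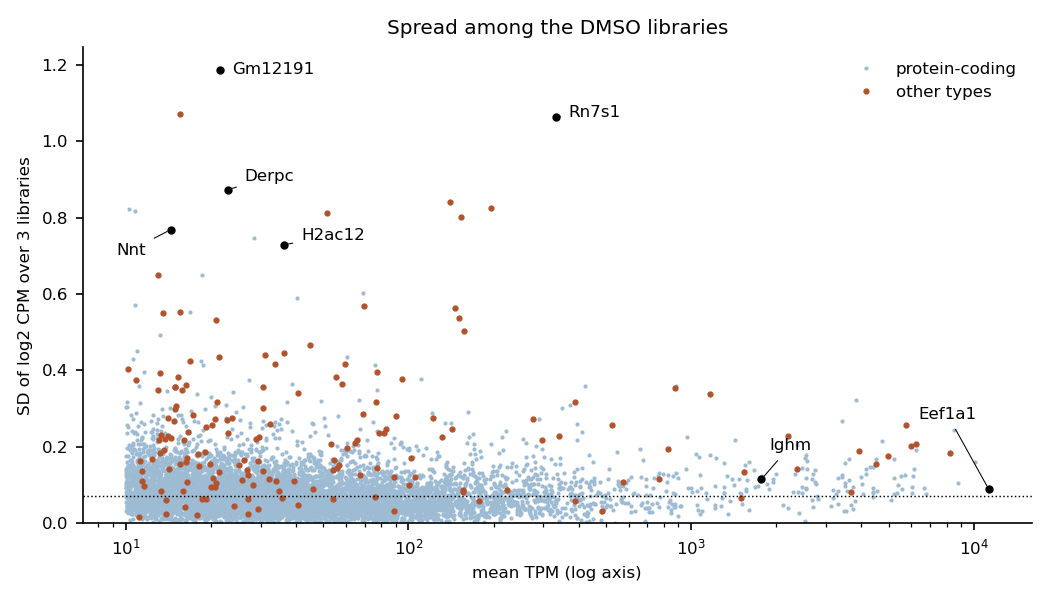
SD of log2 CPM over the 3 libraries (y axis) against mean TPM (x axis, log) for 7600 genes that were on at a mean of at least 10 TPM, with the median dotted. Most points lie below 0.2, and Nnt, Derpc, H2ac12, Rn7s1 and Gm12191 stand above 0.7.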

How the data were processed

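The series holds poly(A) RNA-seq of mouse CH12F3 cells, and 3 of its 9 libraries, all labelled DMSO, were used. The authors deposited a table of raw counts per gene and a table of log2 values, log2(TPM + 1), both with 45361 identifiers. The submitters' processing notes name the build mm9. For aligner, counter, annotation and strand setting, the tools used were not given in the sources used here. Within 0.0001, every deposited TPM was a whole hundredth. Values in the table summed to 987814 to 988739 TPM per library, so 1.13 to 1.22% of TPM belongs to features not analysed here. Of the 16 listed long non-coding RNA genes, 0 were found by symbol among these identifiers, so they are not analysed here. Only 24 identifiers were annotated as lincRNA in GENCODE M21.

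Genes were classed by TPM and counts, with limits of 1 TPM and 3 counts. Gene types, chromosome names and exon lengths came from GENCODE M21 by gene identifier (42117 of 45361 identifiers matched), a GRCm38 annotation of which no coordinate was combined with the files. Shares of V segments carry Wilson intervals at 95%. The spread was estimated with edgeR 4.0.16 in R 4.3.3 (TMM scaling, intercept only) and was tested on simulated data. DESeq2 1.42.0 gave alternative size factors. Named genes were the 30 highest by TPM, the 20 highest outside all lists, the 3 highest V segments per locus, the 15 most variable, Lig4, and per list the defining markers, up to 6 highest members and the members that were off where these were 8 or fewer. A few further genes (such as lowest members, paralogs and partners in a ratio) were chosen after their values were seen, as were the paralog groups and ratios. The members and the 60 lists and 16 families were chosen with earlier results of these data known, so their counts support nothing beyond description. Where a symbol had more than 1 identifier, the one with the highest mean TPM was used. Some genes that this rule names are not reported here.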

Additional observations from a re-analysis of the deposited data

How the results depend on the processing

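No paired analysis was possible because the results come from 1 group and from no test. Genes on numbered 10541 and genes off 30741, and every other limit tried, as well as leaving out each library, kept both counts within 1.5 times. Of 59 lists, under limits of 0.5 and 2 TPM, 3 counts moved further: the developmental, germline and stromal lists each went from 0 to 1 gene on at 0.5 TPM. The following values moved by more than the spread between libraries, apart from the biological coefficient of variation, which had another yardstick. The share of the 100 most abundant genes was 40.3% of TPM and 21.3% of counts when ranked by CPM. Ighm was 1768 TPM as deposited and 3044 when counts were divided by GENCODE exon length. The ratio of Ighm to Igha was 11.3 in TPM, 13.9 in counts and 19.7 by GENCODE exon length, and the share of Ighm among heavy constant regions was 90.2% in TPM and 93.6% by exon length; both uses of exon length here were chosen after seeing the data. The biological coefficient of variation, 0.0692 with all libraries, ranged from 0.0644 to 0.0778 when 1 library was left out, highest without DMSO 2. Without DMSO 2 it moved by more than the SD of the values with 1 library left out. That SD comes from the same values and is not a spread between libraries. For all these moved values the cause was not tested. Depth limits the genes near 3 counts.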

Other observations

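Some further families had a minority of members on. Among 39 HOX genes, developmental regulators that Polycomb complexes are known to repress, 9 were on (23.1%, beside 46.4% of protein-coding genes). These were Hoxc4 (14.2 ± 0.817 TPM), Hoxc6 (7.71 ± 0.445 TPM), Hoxd3 (5.33 ± 0.494 TPM), Hoxb4 (4.59 ± 0.356 TPM), Hoxa10 (4.03 ± 0.486 TPM), Hoxd4 (3.62 ± 0.385 TPM), Hoxa5 (2.44 ± 0.14 TPM), Hoxc9 (2.33 ± 0.105 TPM) and Hoxa7 (2.28 ± 0.771 TPM). They came from all 4 clusters, and 17 others had 0 counts. Of 1412 olfactory receptor genes only Olfr784 (2.03 ± 0.319 TPM) was on, and of 588 vomeronasal receptor genes 0 were. Keratins had 3 of 55 on, with Krt222 (30.1 ± 2.28 TPM) highest. Of 12 neural and muscle markers Tnnt2 (26 ± 1.17 TPM), the cardiac troponin T gene, Tubb3 (8.76 ± 0.204 TPM) and Ckm (1.7 ± 0.246 TPM) were on, and Myh1, Gfap, Nefl, Rbfox3, Snap25, Acta1 and Olig2 were off. Tnnt2 had 783, 541 and 594 counts, so its level did not rest on a few reads. Outside these 12 markers, the troponin gene Tnni1 was on at a higher level, 213 TPM.

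Zinc finger genes with a numbered Zfp name were on in 291 of 418 cases (69.6%, beside 46.4% of protein-coding genes). Their median over all 418 was 4.18 TPM, beside 0.423 TPM over all protein-coding genes. Solute carriers were on in 171 of 380 (45%, beside 46.4% of protein-coding genes), led by the ADP/ATP carrier Slc25a5 (874 ± 10.2 TPM) and the phosphate carrier Slc25a3 (647 ± 21 TPM). Proteasome genes were on in 38 of 45 (84.4%) and complex I genes in 39 of 44 (88.6%), at medians of 162 and 168 TPM. Both shares stand beside 46.4% of protein-coding genes. Families were matched by name, so the complex I genes on include the processed pseudogene Ndufb4c (223 ± 6.46 TPM). Histone genes were on in 47 of 79 (59.5%, beside 46.4% of protein-coding genes), led by the replication-independent H3f3a (698 ± 19.7 TPM) and H3f3b (514 ± 29.2 TPM), whose mRNA is polyadenylated. Cytochrome P450 genes were on in 8 of 134 (5.97%, beside 46.4% of protein-coding genes), with Cyp51 of cholesterol synthesis highest (214 ± 12.7 TPM). These 8 include the pseudogene Cyp4f41-ps (2.13 ± 0.106 TPM).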
